A study of Mus musculus with 2 samples.

Results

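The genes examined here encode subunits of Polycomb repressive complex 1 (PRC1), and were Cbx2, Cbx6, Cbx7, Cbx8, Bmi1, Pcgf2, Ring1, Rnf2 and Phc2, 9 of the 20766 gene symbols in the deposited expression table. They were chosen by name, as the entries whose symbol field holds one of these genes. Earlier results of these data were known when the choice was made. Messenger RNA was sequenced with 50 bp single-end, strand-specific reads from 1 library of Dnmt1+/+ mouse embryonic fibroblasts (MEFs) and 1 library of Dnmt1-/- MEFs. The cells called Dnmt1-/- carry a hypomorphic allele (Dnmt1 n/n) on both chromosomes, and so keep some function of the maintenance DNA methyltransferase. Both lines, the control included, lack functional trp53, the gene of the p53 protein, and their strain is given as unknown in the labels. Whether each line came from 1 embryo or from several is not given in the sources used here. The comparison asks how the mRNA levels of these genes differed in fibroblasts with strongly reduced DNA methylation.

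PRC1 attaches ubiquitin to a lysine in the tail of histone H2A and compacts chromatin. In the canonical complex, a Cbx protein reads H3K27me3, the histone mark laid down by the PRC2 complex, a Ring protein (Ring1 or Rnf2) acts as the ubiquitin ligase together with a Pcgf partner (Bmi1 or Pcgf2), and a Phc protein links complexes to one another. Each position is filled by paralogs, so the composition of the complex depends on which member of each family a cell expresses. In fibroblasts, PRC1 is known for holding down the Ink4 locus and the Hox genes.

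Of the 7 genes that could be evaluated, 2, Bmi1 and Cbx2, were more than 2-fold lower in the Dnmt1-/- library, beside 10.9% of all genes, and 0 were more than 2-fold higher, beside 8.47%. Pcgf2 and Cbx8, paralogs of Bmi1 and Cbx2 in canonical PRC1, differed by less than 1.1-fold. The promoters of these 4 genes are shown to set the pair that was lower beside the pair that was not. Each line holds the 250 bases that precede the annotated start of the gene (NCBI37, the mm9 build, GENCODE annotation), 5′ to 3′ on the strand of the gene, with every CpG dinucleotide in capitals, since CpG is the site that Dnmt1 methylates.
Bmi1 (chr2:18598395-18598644, plus strand): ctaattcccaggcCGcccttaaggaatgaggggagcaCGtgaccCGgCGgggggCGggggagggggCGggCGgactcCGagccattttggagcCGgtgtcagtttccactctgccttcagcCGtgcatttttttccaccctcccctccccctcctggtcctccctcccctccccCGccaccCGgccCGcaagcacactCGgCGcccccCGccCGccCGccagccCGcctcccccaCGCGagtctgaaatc
Pcgf2 (chr11:97561812-97562061, minus strand): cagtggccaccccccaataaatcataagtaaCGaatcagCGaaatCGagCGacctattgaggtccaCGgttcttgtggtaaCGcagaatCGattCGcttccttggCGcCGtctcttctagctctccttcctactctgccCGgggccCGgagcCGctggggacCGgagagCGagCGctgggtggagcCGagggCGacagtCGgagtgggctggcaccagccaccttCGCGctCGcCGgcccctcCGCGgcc
Cbx2 (chr11:118884026-118884275, plus strand): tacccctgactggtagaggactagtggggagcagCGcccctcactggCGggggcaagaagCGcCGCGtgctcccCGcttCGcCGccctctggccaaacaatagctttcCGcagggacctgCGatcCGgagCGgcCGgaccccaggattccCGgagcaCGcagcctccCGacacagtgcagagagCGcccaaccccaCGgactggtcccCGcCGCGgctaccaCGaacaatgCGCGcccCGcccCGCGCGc
Cbx8 (chr11:118902284-118902533, minus strand): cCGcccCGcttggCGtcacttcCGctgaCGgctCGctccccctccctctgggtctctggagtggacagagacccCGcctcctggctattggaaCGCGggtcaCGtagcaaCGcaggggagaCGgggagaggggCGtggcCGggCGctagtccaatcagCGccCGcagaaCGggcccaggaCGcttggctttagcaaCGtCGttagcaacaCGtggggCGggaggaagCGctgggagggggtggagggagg

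All 4 windows were rich in CpG. Bmi1 had 21 CpG in its 250 bases, Pcgf2 had 25, Cbx2 had 28 and Cbx8 had 24, whereas the median over 22375 promoters of protein-coding genes was 9.0, with quartiles of 3.0 and 18.0. Fewer CpG than in the Bmi1 window were found in 79.7% of all promoters, and for Pcgf2, Cbx2 and Cbx8 this share was 87.3%, 91.0% and 85.6%. In these windows the CpG numbers of Bmi1 and Cbx2 lay on either side of those of Pcgf2 and Cbx8. A link between CpG number and the changes was not tested. Ring1 (30 CpG), Rnf2 (31) and Cbx7 (21) were similar to these, whereas the windows of Cbx6 (7) and Phc2 (1), which have alternative starts elsewhere, were poorer in CpG. The letters CACGTG, an E-box that reads the same on both strands, occurred once each in the windows of Bmi1 and Cbx8 and in 6.59% of all promoters. Their match is a description of the letters, and DNA methylation at these windows was not analysed here.

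Values are RPKM, in which read numbers are divided by transcript length and by the size of the library, so levels can be set side by side between genes. A change is the difference of log2(RPKM + 0.1), Dnmt1-/- minus Dnmt1+/+, a scale that understates the change of low genes. Entries with a symbol and the status OK were counted where the higher of the libraries had at least 1 RPKM, which left 11244 entries. They are called genes here, though some genes have more than 1 entry and some entries hold several symbols. As each genotype has 1 library, the spread between replicates is unknown, no test was made, and every difference describes these 2 libraries only. The RPKM carry no read counts, so the table does not give the depth behind a gene, and no counting error is given.

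The labels were checked first. Dnmt1 was at 65.2 RPKM in Dnmt1+/+ and 14.5 in Dnmt1-/-, a log2 change of -2.16, whereas Trp53 was at 18.6 and 19.9 RPKM, and a value for the whole entry cannot show which of its exons were present. Of 10 fibroblast markers all had at least 4.84 RPKM in Dnmt1+/+, where Vim reached 2269. In Dnmt1-/-, 3 were more than 2-fold lower (Col1a2, Fn1 and Thy1) and 2 more than 2-fold higher (Pdgfra and S100a4). Over all kept genes these shares were 10.9% and 8.47%. Thy1 was the lowest marker in both libraries, at 4.84 RPKM in Dnmt1+/+ and 0.129 in Dnmt1-/-, the latter under the minimum of 1 RPKM. All markers of epithelial, endothelial and pluripotent cells that have an entry stayed below 1 RPKM in both libraries. Among these, Epcam, Pecam1, Pou5f1, Sox2 and Zfp42 had the status NOTEST. Of 22 ubiquitously expressed genes 21 were kept, with a median log2 change of -0.05, and 1 was more than 2-fold lower (Psma1) and 1 higher (Actb). Among 4 blood markers, Csf1r was at 0.0702 RPKM in Dnmt1+/+ against 6.08 in Dnmt1-/-, and Cd68 at 0.596 and 3.63. Ptprc, which defines leukocytes, and Emr1 had the status NOTEST and were listed at 0 in both. The 4 summed to 0.666 and 9.71 RPKM. The part of such a difference in cell state in the values of the PRC1 genes was not tested, and fewer cells with a transcript cannot be told apart from less transcript per cell.

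Of the 9 entries, 8 had the status OK and 7 also reached 1 RPKM. Among these 7, 2 were lower by more than 2-fold in Dnmt1-/- MEFs, 0 were higher by this much and 5 lay within 2-fold. Over all 11244 genes, 10.9% passed the 2-fold threshold downwards, 8.47% upwards and 19.4% in one direction or the other. At a threshold of 1.5-fold the 7 genes again gave 2 lower and 0 higher, beside 23.7% and 14.1% of all genes. Of the 7 genes, 6 lay below 0, as did 59.6% of all genes, and 5 lay below the all-gene median, as do 50% of genes by construction. The median log2 change of the 7 genes was -0.31, and that of all genes -0.14 (quartiles -0.56 and 0.27). The middle value of the 7 is that of the Cbx6 entry, which also holds other genes.

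**Figure D1:**
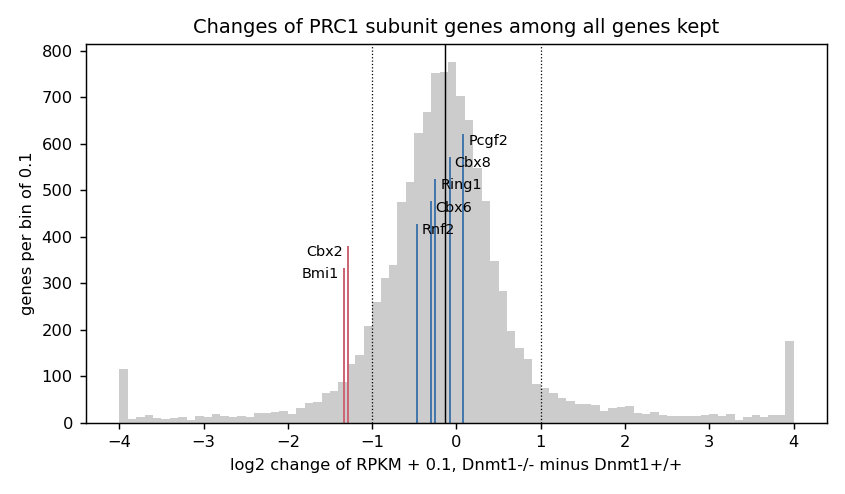
Histogram of the log2 change of RPKM + 0.1 (Dnmt1-/- minus Dnmt1+/+) over the 11244 genes kept, in bins of 0.1, with the 7 PRC1 genes as vertical lines whose heights carry no value; changes past 4 are gathered in the end bins, dotted lines mark 2-fold and the black line the median of -0.14. Bmi1 and Cbx2 (red) lie to the left of the 2-fold line, and the other 5 (blue) lie between -0.47 and 0.08.

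The genes spanned a wide range of levels. In Dnmt1+/+ MEFs the order from the highest was the Cbx6 entry, Rnf2, Bmi1, Pcgf2, Ring1, Cbx8, Cbx2 and Cbx7. In Dnmt1-/- MEFs the order was the same, except that Pcgf2 now stood above Bmi1. Neighbours in this order, such as Cbx8 at 5.44 and Cbx2 at 5.11 RPKM in Dnmt1+/+, cannot be ranked with any certainty from single libraries. Of all kept genes, 64.8% had a lower level than Bmi1 in the Dnmt1+/+ library and 40.9% in Dnmt1-/-, and for Cbx2 these shares were 28.3% and 14.2%.

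**Figure D2:**
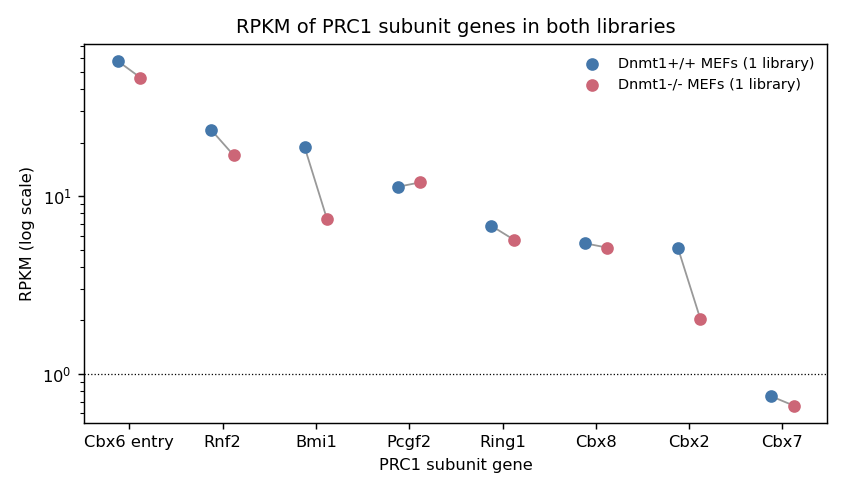
RPKM (log scale) of the 8 measured PRC1 genes in the Dnmt1+/+ library (blue) and the Dnmt1-/- library (red), ordered by the Dnmt1+/+ level, each point being 1 library; the dotted line marks 1 RPKM. The lines joining the points are steep for Bmi1 (18.8 to 7.41 RPKM) and Cbx2 (5.11 to 2.04) and close to flat for Cbx8 and Pcgf2, and Cbx7 lies under 1 RPKM in both.

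The Cbx genes encode the chromodomain subunits, which bind H3K27me3 and bring canonical PRC1 to chromatin. Cbx2 (chr11:118884343-118892584 in the deposited table) was at 5.11 RPKM in Dnmt1+/+ cells and at 2.04 in Dnmt1-/- cells, 2.50-fold lower, with a log2 change of -1.28. Of all kept genes, 6.81% had a lower change. Cbx8, whose locus lies 7166 bp further along chromosome 11, was at 5.44 and 5.14 RPKM, a log2 change of -0.08. The levels of Cbx2 and Cbx8 thus lay close together in Dnmt1+/+ MEFs and apart in Dnmt1-/- MEFs. The ratio of Cbx2 to Cbx8 was 0.939 in Dnmt1+/+ and 0.397 in Dnmt1-/-.

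Cbx7, which encodes the chromobox protein best known for holding down the Ink4 locus, was close to the lower end of what was measured. It stood at 0.749 RPKM in Dnmt1+/+ and 0.665 in Dnmt1-/-, under the minimum of 1 RPKM in both, and is not counted among the 7. Cbx6 shares an entry with Npcd and Nptxr (chr15:79616781-79664763), and this entry had 57.4 RPKM in Dnmt1+/+ and 46.4 in Dnmt1-/-, a log2 change of -0.31. It is the highest value of the 9, yet it cannot be divided among its 3 symbols. The Cbx6 transcript shares 1078 of its 5757 overlapping 50-base stretches (18.7%) with annotated Npcd transcripts and 0 with Nptxr, so reads of Nptxr, a neuronal pentraxin receptor, would fall in the entry without coming from Cbx6.

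With the Cbx6 entry included, the 4 Cbx genes among the 9 summed to 68.7 RPKM in Dnmt1+/+ and 54.2 in Dnmt1-/-, and that entry made up 83.6% and 85.5% of the sum. When the entry was left out, a choice made after the table was seen, the make-up of the other 3 differed between the libraries. Cbx2 made up 45.2% of their summed RPKM in Dnmt1+/+ and 26.0% in Dnmt1-/-. Cbx8 made up 48.2% and 65.5%, and Cbx7 6.63% and 8.48%. The RPKM of Cbx8 itself differed by less than 1.1-fold, so its larger share went with the lower Cbx2 level.

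The Pcgf genes encode the RING-finger partners of the ligase, and the choice among them separates canonical from variant forms of PRC1. Bmi1, also known as Pcgf4, is one of the canonical partners and was first known as a gene that cooperates with Myc in lymphoma. Its entry (chr2:18598611-18608256) had 18.8 RPKM in the Dnmt1+/+ library and 7.41 in the Dnmt1-/- library, 2.54-fold lower, with a log2 change of -1.33. Of all kept genes, 6.31% had a lower change. Pcgf2, also known as Mel18, is the other canonical partner (chr11:97550137-97561811), and was at 11.3 RPKM in Dnmt1+/+ and 12.0 in Dnmt1-/-, a log2 change of 0.08, the one value above 0 among the 7. The ratio of Bmi1 to Pcgf2 was 1.67 in Dnmt1+/+ and 0.620 in Dnmt1-/- MEFs. By these values the more abundant of the canonical partners was Bmi1 in one library and Pcgf2 in the other. Both the ratio and this order rest on the Bmi1 value, which shared reads make uncertain, as set out below.

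The 4 other Pcgf genes, which serve variant PRC1, were all lower in Dnmt1-/- by less than 2-fold. Pcgf5 was at 19.5 and 14.6 RPKM, Pcgf3 at 16.1 and 13.7, Pcgf6 at 8.21 and 5.58, and Pcgf1 at 2.65 and 1.65. The 6 genes together summed to 76.6 RPKM in Dnmt1+/+ and 54.9 in Dnmt1-/-. Bmi1 made up 24.6% of this sum in Dnmt1+/+ and 13.5% in Dnmt1-/-, whereas Pcgf2 made up 14.7% and 21.8%. Pcgf5 made up 25.5% and 26.6%, close to Bmi1 in Dnmt1+/+, and Pcgf3 made up 21.1% and 25.0%. The shares of the 4 variant Pcgf genes each differed by less than 4 percentage points, against 11.1 points lower for Bmi1 and 7.03 points higher for Pcgf2.

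**Figure D3:**
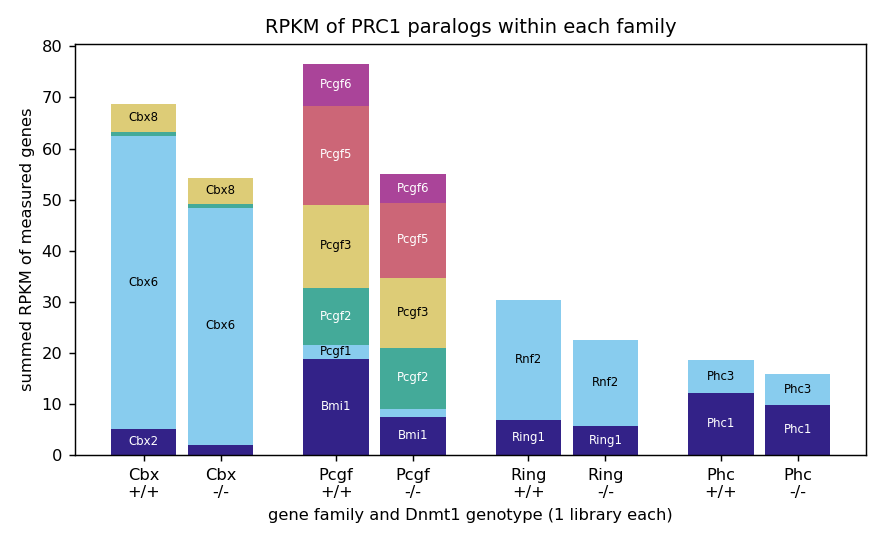
Stacked bars of RPKM for the PRC1 paralogs examined in each family (Cbx, Pcgf, Ring and Phc) in the Dnmt1+/+ and the Dnmt1-/- library, 1 library each and without error bars; the Cbx6 block is the entry that also holds Npcd and Nptxr, thin unlabelled blocks are Cbx7, and in Dnmt1-/- Cbx2 and Pcgf1, and Phc2 is not included. The Bmi1 block is 18.8 RPKM high in Dnmt1+/+ and 7.41 in Dnmt1-/-, while the Pcgf2 block is 11.3 and 12.0.

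The value of Bmi1 carries a limit of its own, since the genome holds processed copies of its transcript. Of the 3545 overlapping 50-base stretches of the Bmi1 transcript, 684 (19.3%) occur elsewhere in the mm9 genome on one strand or the other, and 650 such matches lie on chromosome X. Part of that copy is an entry of its own in the deposited table, without a symbol (chrX:146657131-146657868, 738 bases), and matches Bmi1 on the minus strand. It aligned without gaps to bases 483 to 1220 of the Bmi1 transcript, all within the coding sequence (bases 472 to 1446), with 22 mismatches and 97.0% identity. The first 240 bases of the alignment are shown because reads are assigned by such differences. They run 5′ to 3′ along Bmi1, and the capitals mark the 6 positions at which they differ.
Bmi1 transcript, bases 483 to 722: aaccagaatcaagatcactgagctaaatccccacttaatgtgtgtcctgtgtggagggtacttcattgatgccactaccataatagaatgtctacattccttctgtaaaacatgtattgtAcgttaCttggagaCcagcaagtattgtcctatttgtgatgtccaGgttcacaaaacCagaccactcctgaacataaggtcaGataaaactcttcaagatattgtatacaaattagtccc
Copy on chromosome X (chrX:146657629-146657868, minus strand): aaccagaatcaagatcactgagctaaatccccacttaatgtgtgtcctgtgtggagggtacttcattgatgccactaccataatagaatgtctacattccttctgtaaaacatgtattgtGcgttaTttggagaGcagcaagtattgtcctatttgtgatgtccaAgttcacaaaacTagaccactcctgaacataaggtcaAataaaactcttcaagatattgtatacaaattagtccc

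The entry on chromosome X had 24.7 RPKM in Dnmt1+/+ cells against 10.5 in Dnmt1-/- cells, a log2 change of -1.23. The ratio of Dnmt1-/- to Dnmt1+/+ was 0.424 for this entry and 0.393 for Bmi1. Of the 689 possible 50-base reads along the entry, 128 (18.6%) match Bmi1 without a mismatch, 425 differ from it at 1 or 2 bases, and 136 differ at more than 2. A read from Bmi1 can therefore be placed on the copy and the reverse, and how reads with several matches were counted is not given in the sources used here. The values of both entries are uncertain for this reason, and the part of shared reads in either difference was not tested. Both entries had values lower in Dnmt1-/- by a similar factor.

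For the other 8 genes few or no exact matches of this kind were found, and copies with mismatches were not searched for. For Cbx2, 24 of 3758 stretches (0.639%) recur elsewhere, on chromosome 9 within the Pdgfd locus. The Pdgfd entries summed to 0.767 RPKM in Dnmt1+/+ and 7.00 in Dnmt1-/-. Whether the stretches lie in Pdgfd exons, and the part of shared reads in the Cbx2 value, was not tested. For Cbx6, Cbx7, Cbx8, Pcgf2, Ring1, Rnf2 and Phc2 the number was 0, and no 50-base stretch was shared between the transcripts of any of the PRC1 paralogs compared. Among the paralogs outside the 9, Pcgf1 had 302 of 821 stretches (36.8%) elsewhere, so its low value is uncertain. These matches lie on chromosome 6, where an entry without a symbol had 4.65 RPKM in Dnmt1+/+ and 3.74 in Dnmt1-/-. The Pcgf sums and shares, and the ratios of Bmi1 to other genes, carry the same limit.

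The Ring genes encode the ligases themselves. Rnf2, also known as Ring1B, is the main H2A ubiquitin ligase of PRC1 in most cells. Its entry had 23.5 RPKM in Dnmt1+/+ cells against 17.0 in Dnmt1-/- cells (chr1:153316536-153348118), a log2 change of -0.47. Ring1, also known as Ring1A (chr17:34157737-34161625), was at 6.81 and 5.70 RPKM, a log2 change of -0.25. Rnf2 was the more abundant in both libraries, with 77.5% of the summed RPKM of the pair in Dnmt1+/+ and 74.8% in Dnmt1-/-, and the ratio of Rnf2 to Ring1 was 3.45 and 2.98. The sum itself was 30.3 RPKM in Dnmt1+/+ and 22.6 in Dnmt1-/-. Both changes lie within the quartiles of all genes.

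The Phc genes encode the polyhomeotic subunits, whose SAM domains join into chains. Phc2 (chr4:128331946-128430203) had the status FAIL and was listed at 0 in both libraries. All 94 entries with this status are listed at 0 in both, Hnrnpa1 among them, a gene used by every cell, so this 0 is no measurement and the level of Phc2 is not known from the table. Of its paralogs, Phc1 was at 12.1 RPKM in Dnmt1+/+ against 9.89 in Dnmt1-/-, and Phc3 at 6.61 and 5.95. Phc1 made up 64.7% and 62.4% of the sum of these, a share that takes no account of Phc2.

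The remaining genes of PRC1 were taken from lists by role. Of 4 canonical genes examined outside the 9, 3 were kept, and 1 was more than 2-fold lower, Scmh1, at 16.8 RPKM in Dnmt1+/+ and 6.45 in Dnmt1-/- (log2 change -1.37). Scmh1 encodes a SAM-domain protein that associates with Phc subunits. Its relative Scml2 was at 0.436 and 0.303 RPKM, under the minimum. Of 21 genes of variant PRC1, all kept, 1 was called lower and 0 higher at this threshold. The gene that was lower was Auts2, a subunit found with Pcgf5 and Pcgf3, at 4.29 RPKM in Dnmt1+/+ and 0.844 in Dnmt1-/- (log2 change -2.22). The median of the 21 was -0.23, with 15 below 0 and 6 above.

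The 6 variant genes above 0 were L3mbtl2, Bcor, E2f6, Usp7, Sfmbt1 and Dcaf7. L3mbtl2, an MBT-domain subunit of the Pcgf6 complex, had the highest change, 0.71, at 7.92 RPKM in Dnmt1+/+ and 13.1 in Dnmt1-/-. Its partner E2f6, a DNA-binding subunit of the same complex, was at 10.3 and 14.2 RPKM, while Mga, another DNA-binding subunit of it, was at 7.36 and 4.82. Bcor, the corepressor of the Pcgf1 complex, was at 9.37 and 13.7 RPKM, and Usp7, a deubiquitinase in the same complex, at 43.7 and 60.1. Kdm2b, which brings the Pcgf1 complex to unmethylated CpG islands, was at 11.8 and 9.36 RPKM, and Rybp, which takes the place of the Cbx subunit in variant PRC1, at 11.2 and 9.11. Taking both lists as 1, 2 of 24 kept genes (8.33%) were called lower and 0 higher, beside 10.9% and 8.47% of all genes, so the share that was lower is near that of all genes.

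**Figure D4:**
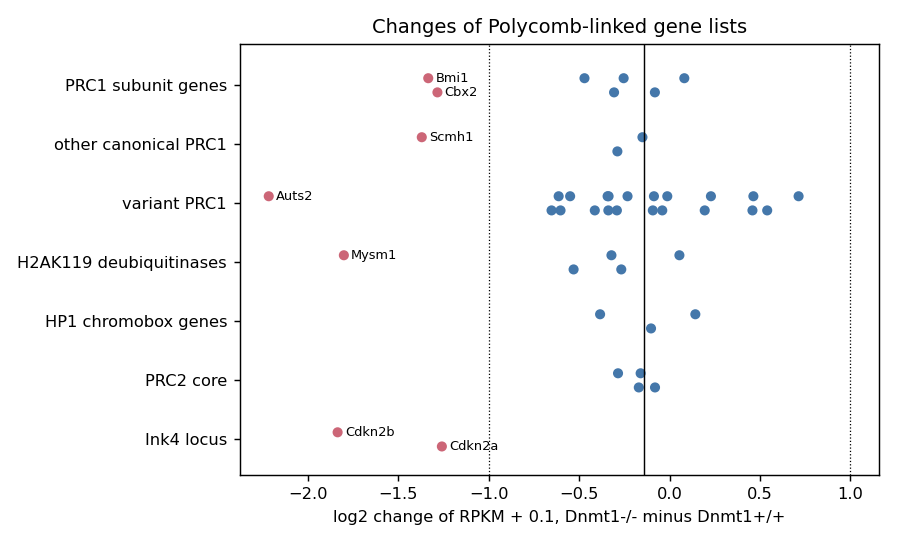
Log2 change of RPKM + 0.1 (Dnmt1-/- minus Dnmt1+/+) for the kept genes of 7 lists, 1 point per gene, spread vertically within a list for legibility; dotted lines mark 2-fold, the black line the all-gene median of -0.14, and red points with names are more than 2-fold lower. No point lies to the right of the upper 2-fold line, and the 4 PRC2 core genes lie between -0.28 and -0.08.

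Genes linked to removal of the H2A mark and genes tied to PRC1 were read in the same way. Over all genes, 10.9% were lower and 8.47% higher by more than 2-fold. Of 5 H2AK119 deubiquitinase genes, 1 was more than 2-fold lower, Mysm1, at 5.89 RPKM in Dnmt1+/+ and 1.62 in Dnmt1-/- (log2 change -1.80). Bap1, the catalytic subunit of the Polycomb repressive deubiquitinase, was at 25.5 and 26.5 RPKM, and its partner Asxl1 at 14.5 and 12.0. The HP1 genes Cbx1, Cbx3 and Cbx5 carry a chromodomain as the PRC1 Cbx genes do but bind H3K9 methylation, and 0 of the 3 were called. Cbx1 was at 40.7 and 37.9 RPKM, Cbx3 at 136.9 and 104.9, and Cbx5 at 58.6 and 64.7. Each of these was above Cbx2, Cbx7 and Cbx8. Of the 4 PRC2 core genes 0 were called, with a median log2 change of -0.16, and Ezh2, the H3K27 methyltransferase, was at 47.9 RPKM in Dnmt1+/+ and 42.8 in Dnmt1-/-.

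Cdkn2a and Cdkn2b form the Ink4 locus, which encodes inhibitors of the cell cycle and which Bmi1 and Cbx7 are known to hold down. Cdkn2a was at 327.9 RPKM in Dnmt1+/+ and 137.0 in Dnmt1-/-, a log2 change of -1.26, and Cdkn2b was at 65.9 and 18.4, a log2 change of -1.84. Both were thus more than 2-fold lower in the library in which Bmi1 was lower. The entry for Cdkn2a does not tell its Ink4a and Arf transcripts apart.

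The nearest genes with a symbol on each side of the 9 loci were read to see whether neighbouring genes differed with them, except that 1 side of the Cbx8 locus is not reported here, and 0 other entries overlapped the loci. Of 11 such neighbour entries kept, the 9 genes themselves left out, 2 passed 2-fold downwards and 5 upwards, and 4 lay within it. Over all kept genes these shares were 10.9% downwards and 8.47% upwards. The 5 higher entries come from 3 genes, since Apobec3 and H2-K1 have 2 entries each. Commd3, whose locus lies 768 bp before that of Bmi1, was at 27.9 RPKM in Dnmt1+/+ and 24.3 in Dnmt1-/-, a log2 change of -0.20, and the ratio of Bmi1 to Commd3 was 0.676 and 0.305. BC061194, on the other side of Bmi1, was at 0.365 and 0.0345 RPKM, under the minimum. The closest neighbours of Bmi1 and Cbx2, Commd3 and Cbx8, thus lay within 2-fold, and Cbx8 is itself among the 9 genes. Enpp7, on the other side of Cbx2, had the status NOTEST and was listed at 0 in both libraries.

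At other loci a neighbour differed by more than the PRC1 gene. Cisd3, 198 bp from Pcgf2, was at 4.86 RPKM in Dnmt1+/+ and 15.2 in Dnmt1-/-, a log2 change of 1.62, while Psmb3 on the other side of Pcgf2 was at 67.1 and 48.7. H2-K1, a class I antigen presentation gene 20441 bp from Ring1, was at 7.42 and 62.2 RPKM in its higher entry, a log2 change of 3.05. Apobec3, a cytidine deaminase gene between Cbx6 and Cbx7, was at 18.9 and 105.8 RPKM in its higher entry, a log2 change of 2.48. Fam129a, 70385 bp from Rnf2, was at 6.22 and 0.395 RPKM, a log2 change of -3.67. Ring1, Rnf2 and Pcgf2 lay within 2-fold beside these. Zscan20, 44604 bp from Phc2, was at 1.83 and 0.676 RPKM, a log2 change of -1.31, and the level of Phc2 itself is not known.

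**Figure D5:**
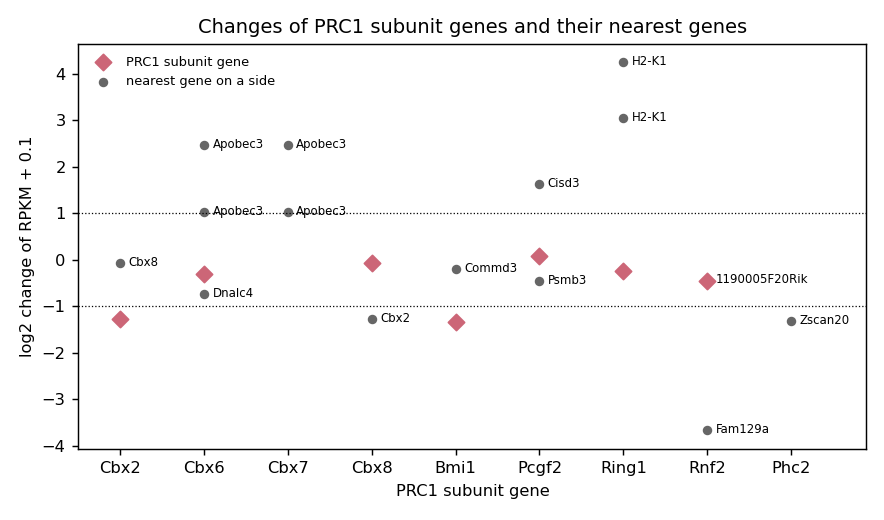
Log2 change of RPKM + 0.1 (Dnmt1-/- minus Dnmt1+/+) for each kept PRC1 gene (red diamonds) and the kept entries nearest to it on either side (grey points, named), with dotted lines at 2-fold; Cbx7 and Phc2 have no diamond because they were not kept. Commd3 (-0.20) and Cbx8 (-0.08) lie well above Bmi1 and Cbx2, and the 2 H2-K1 entries (3.05 and 4.24) well above Ring1.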

How the data were processed

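Strand-specific mRNA-seq of 1 library per genotype was analysed. The authors aligned the 50 bp reads (TopHat, mm9), built transcript models (Cufflinks) and deposited RPKM from Cuffdiff, 1 column per library. Tool versions, the handling of reads with several matches, and the use of strand in counting are not given in the sources used here.

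Entries were kept with status OK, a symbol and at least 1 RPKM in one library or the other. The change was the difference of log2(RPKM + 0.1), and calls were changes past 2-fold, with no test. The rule for genes named took all 9 members, the listed PRC1, deubiquitinase, HP1, PRC2, Ink4 and marker genes, and the nearest genes; the X-linked copy, Pdgfd and Hnrnpa1 were named after their values were seen. A further gene of the lists is not reported here. Members and lists were chosen with earlier results of these data known. Table starts count from 0, and coordinates are given from 1. Stretches of 50 bases of GENCODE vM1 transcripts were searched on both strands of NCBI37. Python 3.11.15, numpy 2.4.6, pandas 2.3.3 and matplotlib 3.10.9 were used.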

Additional observations from a re-analysis of the deposited data

How the results depend on the processing

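The counts and the median of the 7 PRC1 genes kept were recomputed with pseudocounts of 1 and 0.01, without a filter on low RPKM (8 genes), with a filter on the mean, and with the median of all genes or of the ubiquitously expressed genes subtracted. The median and single changes were also taken without a pseudocount, and the counts at a 1.5-fold threshold. The log2 change of Bmi1 ranged from -1.35 to -1.19 and that of Cbx2 from -1.32 to -1.01, so both stayed more than 2-fold lower. Cbx8 was at 0.06 with the all-gene median subtracted, so the sign of its small change is not settled, and Cbx7 was at -0.15 without the filter. At 1.5-fold, 5 of the other PRC1 genes were lower and 1 was higher, beside 23.7% and 14.1% of all genes. Shares within the Cbx family depend on the Cbx6 entry, and both forms are given with the results. No paired analysis was possible because each genotype has 1 library, and no library could be left out. The number of libraries and the absence of read counts limit every value here.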
